A study of Rattus norvegicus with 6 samples.

Results

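The miR-30 family was measured in small RNA libraries from the liver of Wistar rats, 3 with nonalcoholic fatty liver disease (NAFLD) and 3 normal. The family members considered were rno-miR-30a-5p, rno-miR-30b-5p, rno-miR-30c-5p, rno-miR-30d-5p and rno-miR-30e-5p, together with rno-miR-30a-3p and rno-miR-30e-3p from the opposite arms of their hairpins. A read was given to a member when its first 20 bases equalled the first 20 bases of the mature sequence. In this way 4 of the 7 listed members were counted by their mature sequence (rno-miR-30a-5p, rno-miR-30c-5p, rno-miR-30e-5p and rno-miR-30a-3p), out of 646 entries of a rat miRNA table counted by the same rule. The 3′ arm of the Mir30e hairpin was counted from its hairpin sequence and is called the Mir30e 3′ arm. These 5 arms took 7361, 3369 and 3933 reads in NAFLD 1 to 3 and 8299, 3357 and 7225 reads in normal 1 to 3, which was 0.0283% to 0.0700% of the clean reads of a library. rno-miR-30b-5p and rno-miR-30d-5p were not analysed here. rno-miR-30e-3p was not counted by a mature sequence, and its side of the hairpin was counted only as the Mir30e 3′ arm.

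All 6 animals were of the Wistar strain, and the labels give an age of 4 months for each, whereas the methods of the study state a higher age. The NAFLD group was fasted and then given a diet rich in starch, and its 3 livers were picked from the animals with higher hepatic triglycerides, whereas the 3 normal livers were picked at random. Total RNA of whole liver tissue was size-selected and sequenced on the Solexa platform, so fewer cells of a type and less RNA per cell cannot be told apart. The libraries held 11601058 to 11880695 clean reads. Levels are given as TPM, the reads of a miRNA per 1000000 clean reads of its library, which is not divided by length.

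Members of the miR-30 family are cut from hairpin precursors by Drosha and Dicer, and the arm kept by Argonaute pairs with messenger RNAs mainly through its seed, bases 2 to 8. The 5p arms of the family share their seed and are taken as the guide strands, and the 3p arms are known as passenger strands. In liver, miR-30c is known for repressing Mttp, which loads lipid onto lipoproteins, and miR-30a for repressing the autophagy gene Becn1. The RefSeq sequences on build GRCr8 are shown here, 5′ to 3′ with the seed in capitals, because the grouping by seed and the single-base differences decide which reads can be told apart.
rno-miR-30a-5p: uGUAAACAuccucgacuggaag
rno-miR-30e-5p: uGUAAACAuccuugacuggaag
rno-miR-30c-5p: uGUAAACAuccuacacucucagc
rno-miR-30a-3p: cUUUCAGUcggauguuugcagc
Mir30e 3′ arm, first 20 bases counted: cUUUCAGUcggauguuuaca
rno-miR-30c-1-3p: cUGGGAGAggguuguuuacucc
rno-miR-30c-2-3p: cUGGGAGAaggcuguuuacucu

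The seed GUAAACA was held by the 3 counted 5p arms and, of the other entries of the table, by rno-miR-384-5p alone. The seed UUUCAGU was held by rno-miR-30a-3p and the Mir30e 3′ arm. Counted from 1 at the 5′ end, rno-miR-30a-5p and rno-miR-30e-5p differed at a single base of the first 20, C13T, and rno-miR-30a-3p and the Mir30e 3′ arm also at a single base, G18A. rno-miR-30c-5p differed from either of the other 5p arms at 5 of the 20 bases. The sequence of rno-miR-30a-5p lies at chr9:33233946-33233967 on the plus strand, and that of rno-miR-30a-3p at chr9:33233987-33234008. rno-miR-30e-5p lies at chr5:139637504-139637525 on the minus strand. rno-miR-30c-5p has a pair of source hairpins, with copies at chr5:139634505-139634527 on the minus strand (Mir30c1) and chr9:33253695-33253717 on the plus strand (Mir30c2), and their reads cannot be told apart. Mir30e and Mir30c1 are 2906 bases apart and both lie within the span of the protein-coding gene Nfyc, while Mir30a and Mir30c2 are 19670 bases apart. No annotated gene spans Mir30a, and Mir30c2 is spanned by the pseudogene Rbx1-ps1 and the long non-coding RNA LOC134480562.

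The 6 libraries fell into sets that crossed the groups, and the levels, shares and ratios below are given with them. Over 50 abundant sequence starts outside the family, the median share of reads with a substituted base at read position 4 was 2.36% to 2.74% in NAFLD 2, NAFLD 3 and normal 2, called the high-substitution libraries here. It was 0.046% to 0.064% in NAFLD 1, normal 1 and normal 3, the low-substitution libraries. The share of clean reads in the miRNA table also differed, from 75.5% to 78.9% in the NAFLD libraries and from 85.6% to 91.0% in the normal libraries. The hepatocyte miRNA rno-miR-122-5p took 444399 to 464488 TPM in NAFLD and 559995 to 594920 TPM in normal liver, so the marker that defines liver tissue was present at a high level in every library. Markers of other cells were low but present: summed levels were 402 to 444 TPM in NAFLD and 212 to 388 TPM in normal for 3 of 3 stellate miRNAs, 118 to 199 and 122 to 258 TPM for 2 of 2 smooth muscle miRNAs, and 23.0 to 47.4 and 14.6 to 40.9 TPM for 2 of 2 endothelial miRNAs. The erythroid list gave 27.0 to 74.7 and 30.8 to 50.1 TPM for 3 of 4 miRNAs, and the immune list 5.44 to 10.6 and 2.86 to 8.94 TPM for 4 of 5. None of the markers counted was at 0 in a library, and of the 6 lists the hepatocyte and the stellate list did not overlap between groups. The stellate sum was nearly all rno-miR-199a-3p, with 5066, 4674 and 5052 reads in NAFLD and 3469, 2490 and 4544 in normal. The groups overlapped for rno-miR-199a-5p and for rno-miR-214-3p. Of the 168 miRNAs tested, 2.38% had all NAFLD libraries above all normal libraries and 1.79% the opposite order. The part of these cells in the miR-30 levels was not tested.

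rno-miR-30a-5p was the most abundant of the 5 arms. Its level was 440, 176 and 211 TPM in NAFLD 1 to 3 and 530, 180 and 454 TPM in normal 1 to 3. The 2 groups overlapped, although 2 of the 3 normal values were above every NAFLD value, and the low values were those of the 3 high-substitution libraries. The means were 276 ± 143 TPM in NAFLD and 388 ± 184 TPM in normal (SD, n = 3 each; two-sided exact permutation p = 0.4, where 3 libraries against 3 cannot give a p below 0.1). Within the low-substitution libraries the NAFLD value of 440 TPM lay below both normal values, and within the high-substitution libraries the normal value of 180 TPM lay between the NAFLD values.

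rno-miR-30e-5p, which shares all but a single base of its first 20 with rno-miR-30a-5p, was next in level. It was measured at 122, 56.6 and 65.4 TPM in NAFLD and at 108, 53.8 and 85.9 TPM in normal liver. Again the 3 high-substitution libraries were the lowest, and the groups overlapped. The group means were nearly equal, 81.4 ± 35.5 and 82.5 ± 27.2 TPM (SD, n = 3 each; two-sided exact permutation p = 1). Within each set of libraries every NAFLD value was above every normal value, with 122 TPM above 108 and 85.9 TPM, and 56.6 and 65.4 TPM above 53.8 TPM. How many of all miRNAs had this order was not counted. With the library set as covariate, the edgeR log2 fold change of this arm was 0.26, where the median of all miRNAs tested was 0.24.

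rno-miR-30c-5p was the least abundant of the 3 counted 5p arms. Its level was 29.3, 13.3 and 14.6 TPM in NAFLD and 28.3, 14.0 and 26.5 TPM in normal (19.1 ± 8.89 and 22.9 ± 7.82 TPM, SD, n = 3 each; two-sided exact permutation p = 0.9). Each of the 3 low-substitution libraries was above each of the 3 high-substitution libraries, and the groups overlapped. The sum of the 3 counted 5p arms was 591, 246 and 291 TPM in NAFLD and 666, 247 and 566 TPM in normal. The difference of the mean sums, -117 TPM in NAFLD relative to normal, was smaller than the SD within either group, 188 TPM in NAFLD and 219 TPM in normal (n = 3 each).

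The 3′ arms of Mir30a and Mir30e were not lower in the high-substitution libraries. rno-miR-30a-3p, the passenger arm of Mir30a, was read at 31.7, 30.4 and 32.5 TPM in NAFLD and at 26.8, 28.0 and 32.2 TPM in normal. All 6 values lay within a narrow range, and the groups overlapped (31.6 ± 1.04 and 29.0 ± 2.80 TPM, SD, n = 3 each; two-sided exact permutation p = 0.3). The Mir30e 3′ arm was read at 11.4, 10.2 and 9.23 TPM in NAFLD and at 6.83, 7.41 and 9.68 TPM in normal. Only normal 3 reached into the NAFLD range, and the means were 10.3 ± 1.08 and 7.98 ± 1.50 TPM (SD, n = 3 each; two-sided exact permutation p = 0.2). In the order of levels, rno-miR-30a-5p and rno-miR-30e-5p did not overlap each other or any other arm, rno-miR-30a-3p and rno-miR-30c-5p overlapped, and the Mir30e 3′ arm was below all other values of the 5. None of the 5 arms had all NAFLD libraries above all normal libraries, an order that 2.38% of the 168 miRNAs tested had, and none had the opposite order, which 1.79% had.

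**Figure D1:**
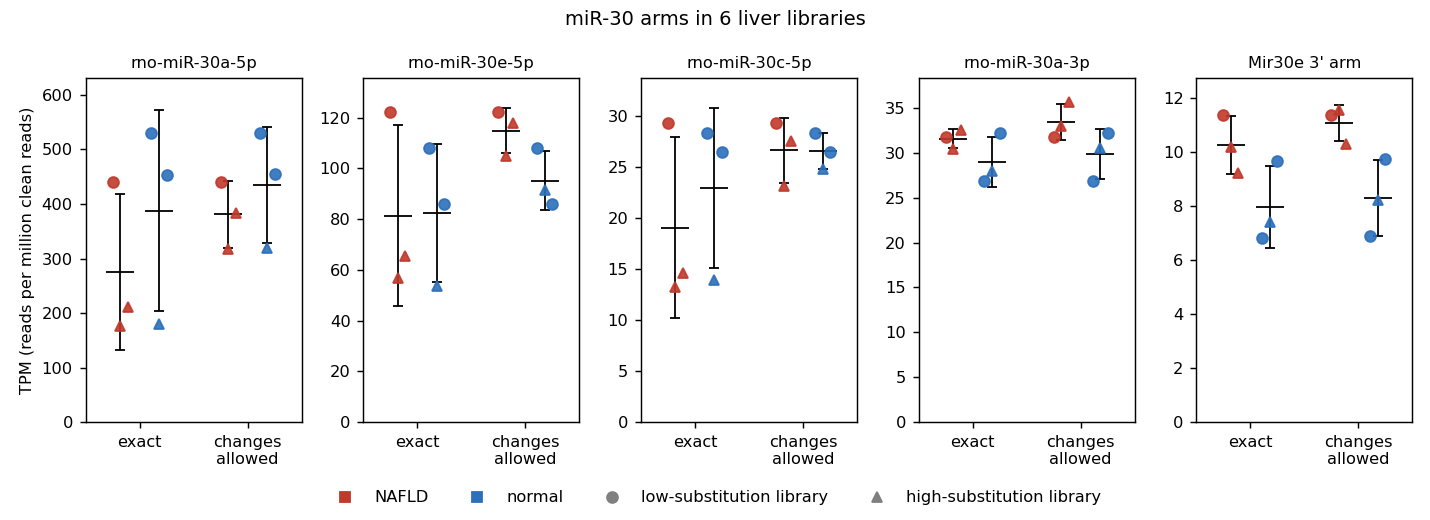
TPM of each counted miR-30 arm in the 6 libraries (points; red NAFLD, blue normal; circles low-substitution, triangles high-substitution libraries), by exact match and with up to 3 A-to-C or T-to-G changes allowed; bars are the mean and SD of 3 libraries. The triangles lie below the circles for the 3 5p arms by exact match, at 176 to 211 TPM against 440 to 530 TPM for rno-miR-30a-5p, and not for rno-miR-30a-3p or the Mir30e 3′ arm.

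The other arm of the rno-miR-30c hairpins was counted as well. rno-miR-30c-2-3p took 287, 141 and 185 reads in NAFLD and 250, 165 and 293 reads in normal, beside 340, 156 and 173 reads and 336, 166 and 315 reads of rno-miR-30c-5p. By exact match the passenger arm of Mir30c2 was thus read at nearly the level of the 5p arm that both hairpins share, and more often in NAFLD 3. With up to 3 A-to-C or T-to-G changes allowed, as described below, it took 287, 194 and 265 reads in NAFLD and 250, 227 and 293 reads in normal, beside 340, 272 and 326 reads and 336, 295 and 315 reads of rno-miR-30c-5p, and was the lower in every library. By exact match the 3 high-substitution libraries of rno-miR-30c-2-3p, at 11.99, 15.7 and 13.9 TPM, were all below the 3 others, at 24.7, 21.1 and 24.7 TPM. rno-miR-30c-1-3p took 10 to 36 reads per library, and rno-miR-30c-2-3p made up 86.0% to 94.3% of the reads of both 3p arms.

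Between the sets of libraries, the mean of the low-substitution libraries was 2.51 times that of the high-substitution libraries for rno-miR-30a-5p, 2.01 times for rno-miR-30c-5p and 1.80 times for rno-miR-30e-5p. The same ratio was 0.998 for rno-miR-30a-3p and 1.04 for the Mir30e 3′ arm. All 3 high-substitution libraries were below all 3 low-substitution libraries for the 3 5p arms of the 5 arms, where 43.5% of the 168 miRNAs tested had this order. The log2 ratio of the sets was 1.33, 1.01 and 0.84 for rno-miR-30a-5p, rno-miR-30c-5p and rno-miR-30e-5p, against a median of 0.50 over all miRNAs tested, and the 5p arms were thus on the high side of a difference that many miRNAs had.

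The reads that an exact match leaves out were then counted by the base that had changed. In the high-substitution libraries, 24.3% to 25.6% of the rno-miR-30a-5p reads that were either exact or changed by A8C alone carried A8C, the last base of the seed. Each share of a change is given in this way, against the exact reads and those with that single change. The mean share of A8C in these 3 libraries was 24.8% for rno-miR-30a-5p, 24.8% for rno-miR-30e-5p and 23.9% for rno-miR-30c-5p. In the low-substitution libraries it was 1 of 5106, 1 of 6287 and 0 of 5392 reads of rno-miR-30a-5p. A5C reached 11.4%, 11.3% and 10.6% in rno-miR-30a-5p, rno-miR-30e-5p and rno-miR-30c-5p, T3G 8.22%, 7.95% and 9.96%, and A15C 4.87%, 3.80% and 5.50%. The first 3 of these 4 changes fall in the seed. rno-miR-30a-3p and the Mir30e 3′ arm have no A at base 5 or 8, and their main change was T3G, at 7.66% and 8.58%. rno-miR-30c-2-3p has A at base 8, and A8C was at 24.3% to 26.6% in its high-substitution libraries.

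A8C was not particular to the family. Among 26 other miRNAs with A at base 8, its mean share in the high-substitution libraries was 15.7% to 27.7% with a median of 21.5%, and at most 0.039% in the low-substitution libraries. The most-read tag of rno-miR-30a-5p is shown with each of its leading changes, because these tags carry reads that the exact count leaves out. The changed base is in capitals.
rno-miR-30a-5p, exact: tgtaaacatcctcgactggaagct
rno-miR-30a-5p A8C: tgtaaacCtcctcgactggaagct
rno-miR-30a-5p A5C: tgtaCacatcctcgactggaagct
rno-miR-30a-5p T3G: tgGaaacatcctcgactggaagct

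The exact tag took 2119, 818 and 1019 reads in NAFLD 1 to 3 and 2471, 893 and 2193 reads in normal 1 to 3. The A8C tag took 0, 242 and 378 reads in NAFLD and 1, 265 and 0 reads in normal. The A5C tag took 0, 109 and 131 reads and 0, 114 and 0 reads, and the T3G tag 0, 93 and 84 reads and 0, 62 and 1 reads. Each changed tag was thus frequent in the same 3 libraries of both groups and almost missing from the other 3. In NAFLD 2, 55.4% of the rno-miR-30a-5p reads with up to 3 such changes had none, 34.3% had 1, 9.23% had 2 and 1.10% had 3.

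**Figure D2:**
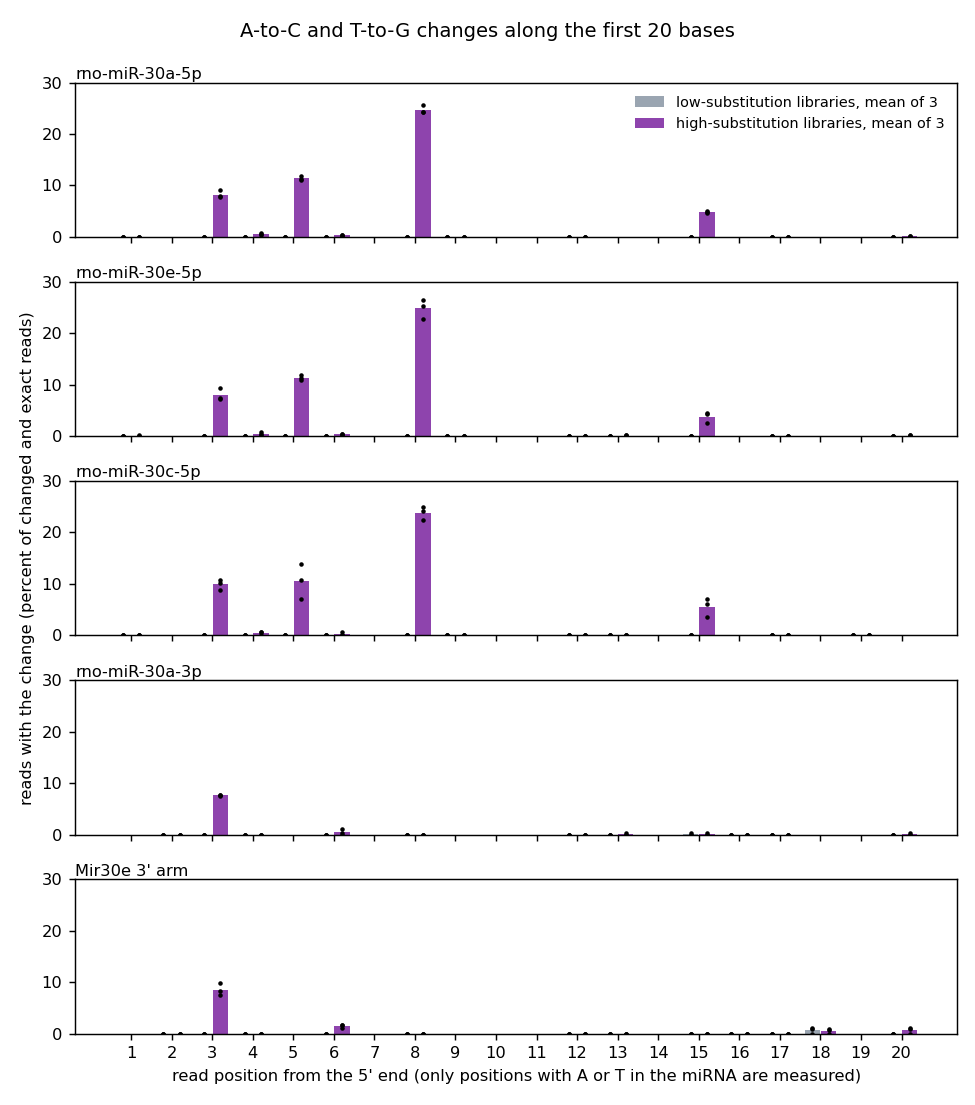
Percent of reads with an A-to-C or T-to-G change (of the exact reads and those with that single change) at each of the first 20 read positions that hold A or T, for the 5 counted arms; bars are means of the 3 low- or 3 high-substitution libraries and points are single libraries. Changes are found in the high-substitution libraries and reach 24.8% at position 8 of rno-miR-30a-5p, with the low-substitution bars near 0.

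Reads with up to 3 A-to-C or T-to-G changes were added back to their miRNA, a count chosen after the changes had been seen. No counted arm can become another by such changes. The added reads were 41.3% to 46.9% of the resulting total of each 5p arm in the high-substitution libraries and at most 0.156% in the low-substitution libraries. They were 7.73% to 8.79% for rno-miR-30a-3p and 10.2% to 11.8% for the Mir30e 3′ arm in the high-substitution libraries. With them, rno-miR-30a-5p was at 440, 318 and 384 TPM in NAFLD and at 531, 320 and 454 TPM in normal. The high-substitution libraries were still below the others for this arm, the only one of the 5 to keep that order, which 13.5% of 171 miRNAs had in this count.

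rno-miR-30c-5p was at 29.3, 23.1 and 27.6 TPM in NAFLD and at 28.3, 24.9 and 26.5 TPM in normal with the changed reads added, so both groups and both sets overlapped. rno-miR-30e-5p was at 122, 105 and 118 TPM in NAFLD and at 108, 91.7 and 85.9 TPM in normal (115 ± 8.95 and 95.2 ± 11.4 TPM, SD, n = 3 each; two-sided exact permutation p = 0.2). A single normal library, at 108 TPM, reached above the lowest NAFLD library. The Mir30e 3′ arm was at 11.4, 11.6 and 10.3 TPM in NAFLD and at 6.92, 8.26 and 9.76 TPM in normal. All 3 NAFLD values were above all 3 normal values, as for 8.19% of the 171 miRNAs in this count, at the smallest p that 3 against 3 allows (two-sided exact permutation p = 0.1).

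In the test across all 168 miRNAs (edgeR quasi-likelihood test with Benjamini-Hochberg adjustment), none of the 5 arms passed an adjusted p of 0.05, where 0.595% of the miRNAs did. None was at an unadjusted p below 0.05 either, in edgeR, DESeq2 or limma, where edgeR had 1.79% of all miRNAs below it. The log2 fold change of NAFLD over normal was -0.49 (SE 0.50) for rno-miR-30a-5p, -0.27 (SE 0.45) for rno-miR-30c-5p, -0.02 (SE 0.48) for rno-miR-30e-5p, 0.12 (SE 0.39) for rno-miR-30a-3p and 0.36 (SE 0.37) for the Mir30e 3′ arm, each with an edgeR adjusted p of 0.993. The median over all miRNAs tested was 0.01. The values of rno-miR-30c-1-3p and rno-miR-30c-2-3p were 0.56 (SE 0.50) and -0.19 (SE 0.42), with the same edgeR adjusted p. The single miRNA called was rno-miR-122-5p, lower in NAFLD by a log2 of -0.35 (SE 0.04, edgeR adjusted p = 6.32e-05). It was not called with TMM or DESeq2 size factors, where rno-miR-1b was, nor with library size from miRNA reads, where no miRNA was (edgeR, with 5 higher and 2 lower at an unadjusted p below 0.05).

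With the set of the library as a covariate, the log2 fold change became -0.03 (SE 0.20) for rno-miR-30a-5p, 0.048 (SE 0.24) for rno-miR-30c-5p, 0.26 (SE 0.22) for rno-miR-30e-5p, 0.14 (SE 0.23) for rno-miR-30a-3p and 0.43 (SE 0.29) for the Mir30e 3′ arm. The standard errors of the 5p arms were 0.20 to 0.24 in place of 0.45 to 0.50, and the signs of rno-miR-30c-5p and rno-miR-30e-5p turned. The median of all miRNAs also rose, to 0.24, so that relative to it rno-miR-30a-5p was at -0.26, rno-miR-30e-5p at 0.02 and the Mir30e 3′ arm at 0.19. None of the 5 was called (lowest edgeR adjusted p = 0.601), with 0.595% of the miRNAs called. With up to 3 changes allowed the values were -0.19 for rno-miR-30a-5p, 0.0058 for rno-miR-30c-5p, 0.27 for rno-miR-30e-5p, 0.16 for rno-miR-30a-3p and 0.42 for the Mir30e 3′ arm, against a median of 0.14. Again none was called, where 0.585% of the miRNAs were.

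**Figure D3:**
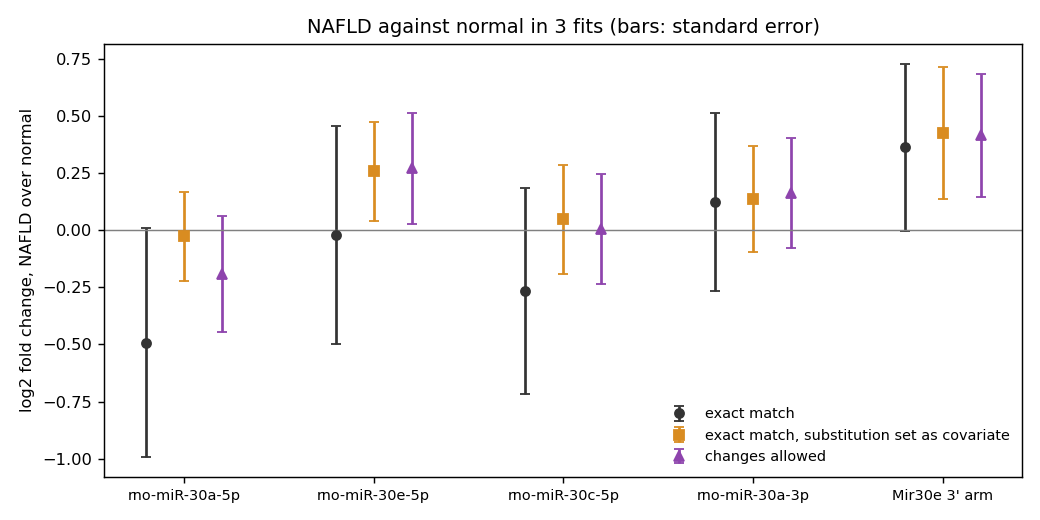
Log2 fold change of NAFLD over normal with its standard error for the 5 counted arms in 3 edgeR fits: exact match, exact match with the library set as covariate, and up to 3 changes allowed. rno-miR-30a-5p moved from -0.49 to -0.03 and -0.19, the Mir30e 3′ arm stayed between 0.36 and 0.43, and no arm passed the test in any of the 3.

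The shares of the counted 5p arms were compared within libraries, where total depth cancels. rno-miR-30a-5p was 74.4%, 71.6% and 72.5% of the reads of the 3 counted 5p arms in NAFLD and 79.6%, 72.6% and 80.1% in normal. Normal 2, a high-substitution library, lay within the NAFLD range, and the mean difference of -4.61 percentage points was not past the test (72.8 ± 1.45% and 77.4 ± 4.20%, SD, n = 3 each; two-sided exact permutation p = 0.2 for 1 of 3 shares compared). rno-miR-30e-5p took 20.6%, 23.0% and 22.5% in NAFLD and 16.2%, 21.8% and 15.2% in normal, a difference of 4.35 points (22.0 ± 1.25% and 17.7 ± 3.55%, SD, n = 3 each; two-sided exact permutation p = 0.2). rno-miR-30c-5p took 4.25% to 5.65% in every library. Within the low-substitution libraries the difference was -5.45 points for rno-miR-30a-5p and 4.96 for rno-miR-30e-5p, and within the high-substitution libraries -0.56 and 1.00, with too few libraries in either for a test.

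The ratio of 5p to 3′ arm reads was taken for both hairpins that gave both arms. For Mir30a it was 13.9, 5.78 and 6.49 in NAFLD and 19.8, 6.42 and 14.1 in normal. For Mir30e it was 10.7, 5.55 and 7.09 in NAFLD and 15.8, 7.26 and 8.88 in normal. The 5p arm was in excess in all 6 libraries for both hairpins, and the groups overlapped for both. The count left out reads that began 1 base downstream. Among exact hairpin reads these were 27.8% to 33.3% of rno-miR-30a-3p in the low- and 20.4% to 25.6% in the high-substitution libraries. They were 2.17% to 15.4% of the Mir30e 3′ arm and at most 0.554% of either 5p arm. The ratios are thus higher than with those reads counted, and ratios with them were not computed. The difference of the mean log2 ratios was -0.59 for Mir30a (two-sided exact permutation p = 0.3) and -0.42 for Mir30e (two-sided exact permutation p = 0.4; n = 3 libraries per group).

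These ratios also moved with the library sets, with means of 15.9 and 6.23 for Mir30a and of 11.8 and 6.63 for Mir30e in the low- and high-substitution libraries. With up to 3 changes allowed, the Mir30a ratio was 13.9, 9.63 and 10.8 in NAFLD and 19.8, 10.5 and 14.1 in normal. The Mir30e ratio was then 10.7, 9.07 and 11.4 in NAFLD and 15.6, 11.1 and 8.80 in normal. The sets still differed by 1.55 times for Mir30a and by 1.11 times for Mir30e, and the difference of the mean log2 ratios between the groups was -0.34 and -0.15.

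**Figure D4:**
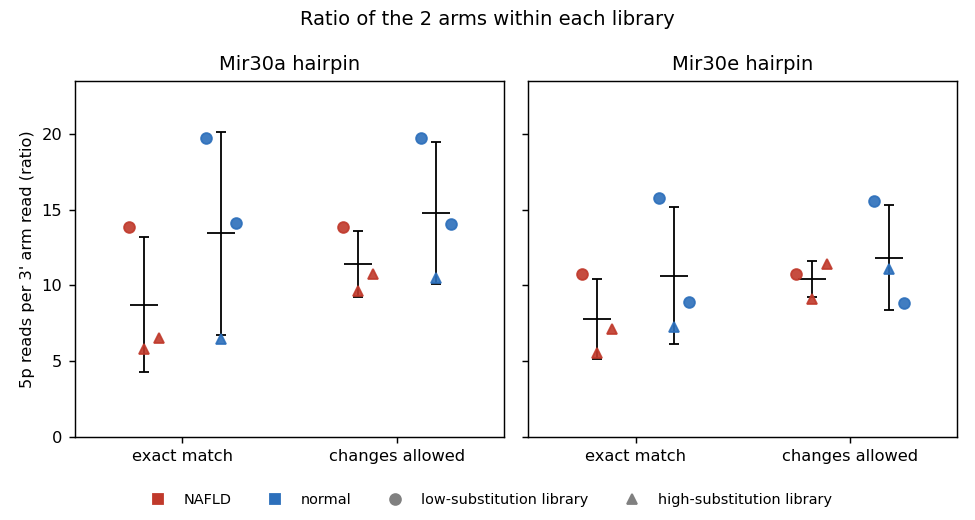
Reads of the 5p arm per read of the 3′ arm in each library for the Mir30a and Mir30e hairpins, by exact match and with up to 3 changes allowed (red NAFLD, blue normal; circles low-substitution, triangles high-substitution libraries; bars mean and SD of 3). By exact match the triangles of Mir30a lie at 5.78 to 6.49 and the circles at 13.9 to 19.8, and NAFLD and normal overlap in every panel.

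The ends of the reads, which the count did not use, differed more between arms than between groups. The most-read tag of each 5p arm was 24 nt long and ended beyond the RefSeq entry but inside the hairpin. The leading tags are shown to the last base, with bases that are not in the hairpin in capitals.
rno-miR-30e-5p: tgtaaacatccttgactggaagct
rno-miR-30c-5p: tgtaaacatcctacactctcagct
rno-miR-30a-3p: ctttcagtcggatgtttgcagc
Mir30e 3′ arm: ctttcagtcggatgtttacagcA
rno-miR-30e-5p, next most-read: tgtaaacatccttgactggaagctT

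The leading 24-nt tag made up 40.6% of rno-miR-30a-5p reads, 52.7% of rno-miR-30c-5p and 58.4% of rno-miR-30e-5p, as means of the 6 libraries. Reads that equalled the RefSeq entry were 11.9% of rno-miR-30a-5p, 9.20% of rno-miR-30c-5p and 1.23% of rno-miR-30e-5p, against 34.0% of rno-miR-30a-3p and a median of 33.3% over 36 miRNAs of at least 100 TPM, whose range was 3.05% to 99.6%. In rno-miR-30e-5p they were 0.989%, 0.601% and 0.906% in NAFLD and 1.96%, 1.56% and 1.37% in normal. These shares rest on 14, 4 and 7 reads and on 25, 10 and 14 reads, and the NAFLD values were all below the normal values, at the smallest p the design allows (two-sided exact permutation p = 0.1).

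Mean read length was 23.6 nt in NAFLD and 23.5 nt in normal for rno-miR-30a-5p, 24.3 and 24.1 nt for rno-miR-30c-5p, 24.5 and 24.3 nt for rno-miR-30e-5p and 22.2 nt in both for rno-miR-30a-3p. Reads whose end left the hairpin sequence were 24.4 ± 4.18% of rno-miR-30a-5p in NAFLD and 21.4 ± 2.59% in normal (SD, n = 3 each). They were 36.6% and 34.2% of rno-miR-30e-5p, 41.4% and 41.0% of rno-miR-30a-3p and 69.8% and 66.2% of the Mir30e 3′ arm, with overlapping groups for each of these 4 arms. The bases that left the hairpin differed by arm, with ends of T alone on 19.7% and 19.2% of rno-miR-30e-5p reads and ends of A alone on 39.2% and 37.2% of the reads of the Mir30e 3′ arm. Added bases are known as marks of nucleotidyl transferases on small RNAs, and a base that happens to match the hairpin is not seen as added. A base changed after base 20 also counts as leaving the hairpin, and its part was not tested. Ends with C or G had means of 1.08% in the low- and 2.34% in the high-substitution libraries for rno-miR-30a-5p, 1.11% and 2.63% for rno-miR-30e-5p, and 0.64% and 1.98% for rno-miR-30a-3p. For rno-miR-30c-5p and the Mir30e 3′ arm the sets overlapped.

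Of 42 comparisons of length and 3′ end over the 5 arms, 5 did not overlap between the groups, where 10.6% of 801 such comparisons over 89 other miRNAs of at least 50 reads in every library did not. The share in the family was thus near that of other miRNAs, and no comparison could reach a p below 0.1. Between the high- and low-substitution libraries 6 of the 42 did not overlap, where 18.1% of the 801 did not. Ends that held both A and T were on 13.2%, 10.9% and 15.6% of rno-miR-30c-5p reads in NAFLD and on 8.04%, 9.04% and 7.62% in normal (two-sided exact permutation p = 0.1). Ends of A alone were on 5.30%, 5.71% and 4.66% of rno-miR-30e-5p reads in NAFLD and on 7.90%, 6.26% and 8.13% in normal (two-sided exact permutation p = 0.1). The others were the share equal to the entry in rno-miR-30e-5p, ends of A alone in rno-miR-30a-5p and ends with C or G in rno-miR-30c-5p. With 156 to 340 reads of rno-miR-30c-5p per library these shares rest on few reads.

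**Figure D5:**
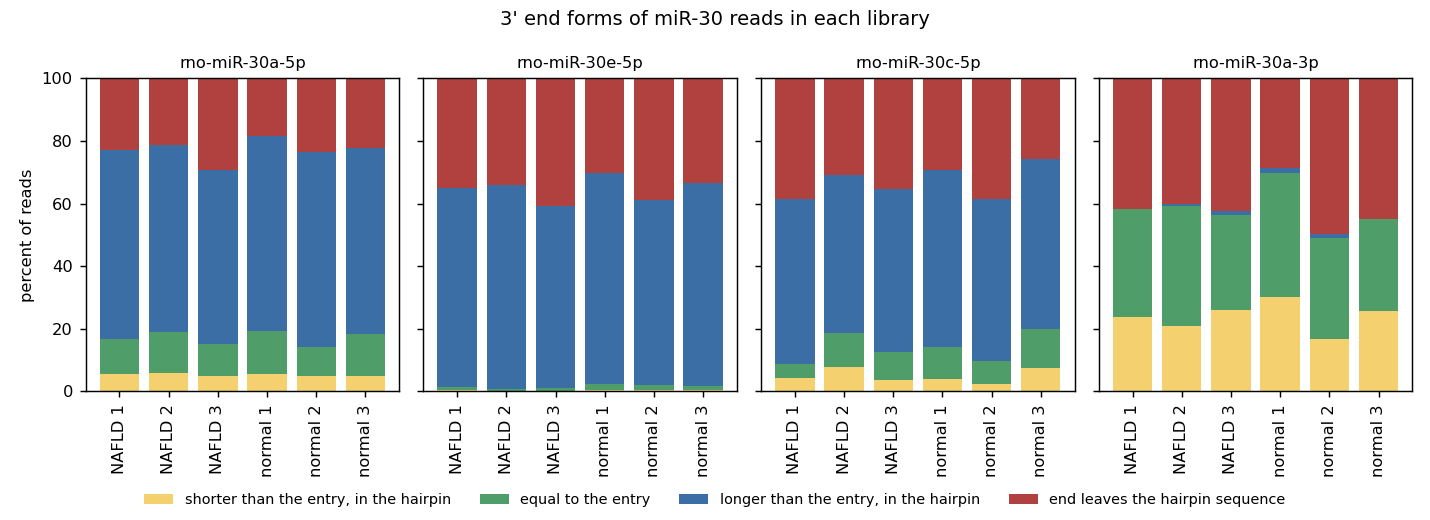
Percent of the reads of 4 arms in each library that are shorter than the RefSeq entry, equal to it, longer within the hairpin, or end in bases that are not in the hairpin. The longer form leads in the 3 5p arms, and the equal form, at 1.23% in rno-miR-30e-5p and 34.0% in rno-miR-30a-3p, differs more between arms than between groups.

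Among reads that matched a hairpin exactly, the 5′ ends, which set the seed, were nearly fixed in the 5p arms, with at least 99.05% of reads at the start of the entry in each library. rno-miR-30a-3p was different: 31.4%, 25.6% and 20.4% of its reads in NAFLD and 33.3%, 24.3% and 27.8% in normal started 1 base downstream, which shifts the seed by a base (25.8 ± 5.49% and 28.5 ± 4.54%, SD, n = 3 each; two-sided exact permutation p = 0.5). The shares of the 3 high-substitution libraries, 25.6%, 20.4% and 24.3%, were all below those of the 3 low-substitution libraries. For the Mir30e 3′ arm and rno-miR-30c-2-3p the sets overlapped, and how many of all miRNAs had this order was not counted. Reads with a changed base are not in these shares. The shifted read has A at base 5, unlike the unshifted read, and A5C reached 11.4% in rno-miR-30a-5p. The part of such changes in the order was not tested. Reads with the shifted start are not part of the levels and ratios above. The same shift was found in 7.84% and 9.89% of the reads of the Mir30e 3′ arm and in 6.87% and 6.02% of rno-miR-30c-2-3p, as means of the NAFLD and the normal libraries.

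At the base where an arm differs from its near twin, reads with a base that belongs to neither were counted. At base 13, where rno-miR-30a-5p and rno-miR-30e-5p differ, 1 to 5 reads per library had another base, of 2736 to 7565 reads, or 0.0132% to 0.108%. At base 18, where rno-miR-30a-3p and the Mir30e 3′ arm differ, it was 0 to 3 reads. A change from the base of one arm to that of the other would not be seen in this count, which therefore sets no bound on it.

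The profile of the summed 5p arms over the 6 libraries was most like those of rno-miR-26a-5p, rno-miR-26b-5p and rno-miR-148a-3p, among 35 other miRNAs of at least 100 TPM. Their root mean square differences in log2 TPM, each centred on its own mean, were 0.125, 0.135 and 0.161, where the median of the 35 was 0.411. rno-miR-26a-5p was at 2124, 889 and 1095 TPM in NAFLD and at 2010, 887 and 1730 TPM in normal. Each of these 3 miRNAs, like the summed 5p arms, was lower in every high-substitution library than in every low-substitution library, and the groups overlapped. They were picked for likeness to a profile with this order, which 43.5% of the 168 miRNAs tested had. The mean share of A8C in the high-substitution libraries was 18.1% for rno-miR-26a-5p, 16.6% for rno-miR-26b-5p and 17.4% for rno-miR-148a-3p. Its part in the likeness was not tested.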

How the data were processed

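Small RNA of 3 NAFLD and 3 normal rat livers was sequenced by the authors, who removed low-quality, primer, poly A and short reads. The deposited values are read counts per tag, which the authors did not normalize. The submitters' processing notes name the genome builds Rnor_5.0 and rn5, and no alignment enters the counts. Tags were counted by an exact match of the first 20 bases to RefSeq mature entries (GRCr8; 724 entries, of which 46 under 20 nt were left out; equal starts merged, 646 in all). The Mir30e 3′ arm was taken as the 20 bases from base 59 of the 92-base hairpin, where 218 of 244 exact reads of its 3′ side began. TPM used total clean reads. edgeR 4.0.16 in R 4.3.3 (glmQLFit, glmQLFTest, filterByExpr, library size equal to clean reads, Benjamini-Hochberg, threshold 0.05) was the test. It was also run on simulated counts that held no difference between library sets. That run therefore does not show how the test performs on these libraries. The alternatives were limma 3.58.1, fitted to log2(TPM + 1), and DESeq2 1.42.0. Other steps used Python 3.11.15 with pandas 2.3.3, numpy 2.4.6 and scipy 1.17.1.

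Single values were compared by two-sided exact permutation tests. The animals are separate by the study's methods. Libraries of a group differed beyond counting error (chi-square per degree of freedom of at least 109). Counting error is small at this depth, and amplified reads are not independent molecules. Named were the listed members, the other arms and the 3 most alike profiles. The members, lists and library sets were chosen with earlier results of these data known. rno-miR-30b-5p, rno-miR-30d-5p, rno-miR-30b-3p and rno-miR-30d-3p were not analysed here, and rno-miR-30e-3p only as the Mir30e 3′ arm.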

Additional observations from a re-analysis of the deposited data

How the results depend on the processing

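None of the 5 arms was called in any of the fits. The log2 fold change of rno-miR-30e-5p, -0.02, turned to 0.17 with library size from miRNA reads (median of all miRNAs 0.20), 0.26 with the library set as covariate, and, among alternatives chosen after seeing the data, 0.22 with 1 change allowed, 0.27 with up to 3 and 0.31 with up to 3 and the covariate. rno-miR-30c-5p, -0.27, turned to 0.048 with the covariate, 0.0058 with up to 3 changes and 0.063 with both. rno-miR-30c-2-3p, -0.19, turned to 0.0072 with library size from miRNA reads, 0.054 with the covariate, 0.070 with up to 3 changes and the covariate, and 0.023 without NAFLD replicate 2 (-0.52 to 0.023 with each library left out in turn). The cause was not tested. Leaving out each library in turn gave -0.44 to 0.22 for rno-miR-30e-5p, where leaving out NAFLD 2 (0.18), NAFLD 3 (0.11), normal 1 (0.22) or normal 3 (0.01) turned the sign. It gave -1.003 to -0.20 for rno-miR-30a-5p, -0.72 to -0.06 for rno-miR-30c-5p, 0.07 to 0.20 for rno-miR-30a-3p and 0.26 to 0.53 for the Mir30e 3′ arm. The log2 ratio difference was -1.05 to -0.24 for Mir30a and -0.68 to -0.10 for Mir30e, and the difference of the 5p sum -240 to -30.7 TPM. The share differences were -7.03 to -3.26 points for rno-miR-30a-5p, -0.04 to 0.66 for rno-miR-30c-5p and 3.08 to 6.37 for rno-miR-30e-5p. With full mature sequences alone the share difference was 0.97 points for rno-miR-30a-5p and -0.93 for rno-miR-30e-5p. The differences within each library set were taken from the main exact-match count, not from full mature sequences. Within the high-substitution libraries they were -0.56, -0.44 and 1.00 points for rno-miR-30a-5p, rno-miR-30c-5p and rno-miR-30e-5p. Within the low-substitution libraries they were -5.45, 0.49 and 4.96 points in the same order. The miRNAs lower in NAFLD numbered 1, or 0 with library size from miRNA reads and 1 to 2 with a library left out, the higher number without NAFLD 1. With TMM or DESeq2 factors the miRNA called was rno-miR-1b in place of rno-miR-122-5p. Of 176 alternatives for read ends, 15 moved by more than the spread between replicates.

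The same-numbered libraries share only a number: their deviations correlated at 0.13, 0.34 and -0.53. With the replicate block the log2 fold changes were -0.47, -0.29, -0.05, 0.13 and 0.37 for rno-miR-30a-5p, rno-miR-30c-5p, rno-miR-30e-5p, rno-miR-30a-3p and the Mir30e 3′ arm, and the number of calls stayed at 1. The planned count with any 1 substitution was not run, because arms that differ by a single base would exchange reads. The 3 libraries per group and the 10 to 36 reads of rno-miR-30c-1-3p limit what could be detected.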
